A study of Mus musculus with 6 samples.

Results

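The 10 genes described here mark GABAergic neurons of the forebrain: Gad1 and Gad2 for GABA synthesis, the homeobox genes Dlx1, Dlx2, Dlx5 and Lhx6, the zinc finger gene Sp9, the bHLH-PAS gene Npas1, and the neuropeptide genes Sst and Npy. They were chosen by gene symbol from the 27179 genes of the deposited table, and all 10 were found there, each once. RNA sequencing measured cerebral cortex of E18.5 mouse embryos of the strain C57BL/6N. The CAP1-KO group (libraries FCRE3, FCRE4 and FCRE5) was homozygous for a flox allele of Cap1 and carried a Nestin-CRE transgene, and the Control group (libraries FF1, FF2 and FF4) had the same flox alleles without the transgene. Cre under the Nestin promoter acts in neural progenitors and therefore in neurons and glia derived from them. No group carried Cre on unfloxed alleles, so the transgene itself and CAP1 loss cannot be told apart, and the labels give neither sex nor litter. The design asks how loss of CAP1, an actin-binding protein, changes gene expression in this tissue.

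Cortical interneurons are not born in the cortex. They arise in the ganglionic eminences of the ventral forebrain, switch on Dlx genes and GABA synthesis there, and migrate tangentially into the cortical plate, where the mature subtypes that make somatostatin or neuropeptide Y appear late. The same Dlx and Gad genes are active in striatal projection neurons, which stay in the ventral forebrain, whereas Lhx6 is a mark of interneurons from the medial ganglionic eminence.

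Levels are read counts scaled to library size (CPM) on the authors' normalization, and recovered depth was between 32443864 and 36302598 reads per library. Cap1 measured 82.9 to 86.6 CPM in CAP1-KO and 166 to 194 CPM in Control. The Control library FF4 stood apart from FF1 and FF2 in forebrain markers. Summed over 12 genes of glutamatergic projection neurons, the principal neurons of the cortex, the CAP1-KO libraries had 1977 to 2172 CPM, and the Control libraries had 1954 CPM in FF4 against 2980 CPM in FF1 and 3088 CPM in FF2. Results are therefore given with and without FF4. Xist, which coats the inactive X chromosome in females, was present at 2398 to 2653 CPM in CAP1-KO and 2296 CPM in FF2, but 0.577 CPM in FF1 and 2.05 CPM in FF4, so that FF2 was the only Control library with an Xist level like that of the CAP1-KO libraries. The opposite order held for Ddx3y, which lies on the Y chromosome. It reached 64.1 CPM in library FF4 and 58.9 CPM in library FF1. In FF2 and the CAP1-KO libraries it was 0.0536 CPM or less. By both genes FF1 and FF4 had the pattern of male embryos, and FF2 and all CAP1-KO libraries that of females. Sex was thus not balanced between the groups, and its effect cannot be fully told apart from that of genotype.

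RefSeq promoters (GRCm38.p6, 250 bases before to 50 after a gene's start) were found for 9 of the 10 genes, 11 promoters in all, and none was found for Dlx5. Those of Npas1 and Npy are shown because these genes had the lower levels in CAP1-KO described below, and that of Sst because it is the other peptide gene and held the only motif match. Capitals mark TGACGTCA, the cAMP response element that the Sst promoter is known for. The Npas1 sequence lies at chr7:16476731-16477030 on the minus strand, the Npy sequence at chr6:49822460-49822759 on the plus strand and the Sst sequence at chr16:23890795-23891094 on the minus strand.
Npas1: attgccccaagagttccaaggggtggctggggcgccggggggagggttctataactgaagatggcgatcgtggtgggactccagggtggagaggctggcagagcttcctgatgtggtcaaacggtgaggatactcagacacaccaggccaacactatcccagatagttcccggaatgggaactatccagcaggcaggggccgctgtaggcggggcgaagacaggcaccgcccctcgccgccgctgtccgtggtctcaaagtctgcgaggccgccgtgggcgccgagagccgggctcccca
Npy: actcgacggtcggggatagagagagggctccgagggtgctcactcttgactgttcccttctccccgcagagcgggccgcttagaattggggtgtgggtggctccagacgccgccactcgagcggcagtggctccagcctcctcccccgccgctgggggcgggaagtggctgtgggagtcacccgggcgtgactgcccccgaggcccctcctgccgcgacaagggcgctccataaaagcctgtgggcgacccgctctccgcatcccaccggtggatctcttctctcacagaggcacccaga
Sst: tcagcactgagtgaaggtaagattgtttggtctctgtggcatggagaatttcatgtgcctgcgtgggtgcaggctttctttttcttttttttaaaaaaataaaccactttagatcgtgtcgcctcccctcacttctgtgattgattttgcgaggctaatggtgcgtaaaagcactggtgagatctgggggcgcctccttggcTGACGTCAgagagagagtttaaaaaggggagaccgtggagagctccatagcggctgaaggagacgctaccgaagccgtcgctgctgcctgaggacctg
The element of Sst began at base -48 from the start. Both strands were searched for 3 motifs: TAATTA, a core sequence bound by homeodomain proteins such as the DLX factors, the CArG box, which SRF binds, and TGACGTCA. A TAATTA can lie inside a CArG box. TAATTA was in 0 of the 11 promoters and in 5.29% of all 32851 promoters, the CArG box in 0 of 11 and 1.63%, and TGACGTCA in 1 of 11 and 1.79%. The median GC content of the 11 promoters was 63.3%, against 52.7% over all promoters, with Sst at 50.3% and the lowest of the Lhx6 promoters at 48.7%. In position, 6 of the 10 genes lay on chromosome 2 (60%), as did 8.06% of tested genes with a RefSeq match. Gad1 (chr2:70561303-70602014), Dlx1 (chr2:71528113-71533981), Dlx2 (chr2:71543408-71546754) and Sp9 (chr2:73271926-73275771) lay within a few megabases, and Dlx1 and Dlx2 were 9426 bases apart.

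All 10 genes had a mean level of 1 CPM or more over the libraries, the filter that 13885 genes passed. Levels of different genes were compared per kilobase of exon (CPM per kb, union of GENCODE M21 exons). In CAP1-KO, Sst was highest at 94.7 ± 5.83 CPM per kb, followed by Npy at 56.9 ± 5.41 CPM per kb. In Control the order of the peptide genes was less clear, with Npy at 76.6 ± 2.11 CPM per kb and Sst between 55.6 and 100.7 CPM per kb. Dlx1, Gad2, Gad1 and Lhx6 came next in CAP1-KO with means between 18.9 and 25.6 CPM per kb, and the ranges of neighbours in this order overlapped. Dlx2 (13.9 ± 1.58 CPM per kb), Dlx5 (10.2 ± 0.941), Sp9 (5.85 ± 0.925) and Npas1 (3.95 ± 0.305) followed, each with a range in CAP1-KO below that of the gene before it (n = 3). In Control, Npas1 at 7.27 ± 1.44 CPM per kb overlapped Dlx5 at 7.28 ± 2.21 CPM per kb.

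Of the 10 genes, Npas1 fell in CAP1-KO and the other 9 did not pass the test. Of all genes tested, 0.403% were lower and 0.562% higher (limma, Benjamini-Hochberg adjusted p under 0.05). The median log2 fold change (CAP1-KO minus Control) was 0.36 over the 10 genes, 7 positive and 3 negative, against -0.01 over all genes tested. Npas1 and Npy were the 2 genes whose groups did not overlap, both lower in CAP1-KO, and 14.6% of tested genes were separated in that direction. Separation with higher CAP1-KO levels was found for 0 of the 10 and for 11.1% of tested genes. In these bulk samples fewer cells of a type and less RNA per cell cannot be told apart. At unadjusted p under 0.05, Gad2, Dlx5 and Sp9 were higher and Npas1 and Npy lower, shares to be read against 7.74% higher and 15.3% lower among all tested genes.

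**Figure D1:**
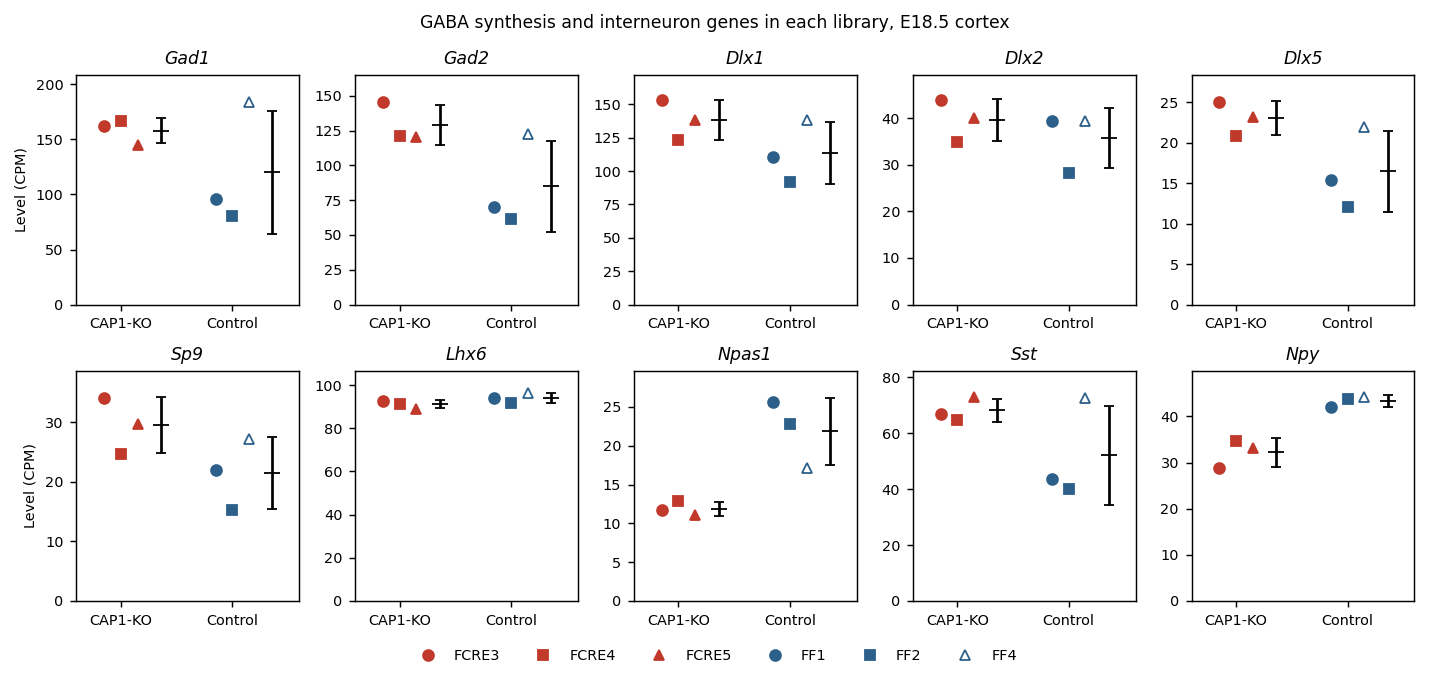
Level of each of the 10 genes (CPM, linear axis from 0) in the 3 CAP1-KO libraries (red, left) and the 3 Control libraries (blue, right), with the group mean and SD as a black bar. FF4 (open triangle) lies among or near the CAP1-KO libraries for Gad1, Gad2, Dlx1, Dlx5, Sp9 and Sst, Lhx6 is level throughout, and Npas1 and Npy are lower in all CAP1-KO libraries.

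Gad1 and Gad2 encode the glutamate decarboxylases GAD67 and GAD65, which make GABA from glutamate. Gad1 measured 162, 167 and 145 CPM in FCRE3, FCRE4 and FCRE5, against 95.5, 80.8 and 184 CPM in FF1, FF2 and FF4. The highest of the 6 libraries was thus a Control library, and FF4 had 2.09 times the mean of FF1 and FF2. Gad1 averaged 158 ± 11.6 CPM in CAP1-KO and 120.1 ± 55.8 CPM in Control (SD, n = 3 each), with a log2 fold change of 0.48 (SE 0.27, limma adjusted p = 0.319). Gad2 measured 146, 121 and 120.0 CPM in FCRE3, FCRE4 and FCRE5, against 70.3, 61.8 and 122 CPM in FF1, FF2 and FF4. Only FF4 reached the CAP1-KO range, and FF1 and FF2 lay well below it. The log2 fold change of Gad2 was 0.66 (95% interval 0.13 to 1.19, limma adjusted p = 0.151), the largest positive value of the 10. The spread in Control was wide for both genes, with coefficients of variation of 7.36% in CAP1-KO and 46.5% in Control for Gad1, and 11.1% in CAP1-KO and 38.7% in Control for Gad2. An antisense gene, Gad1os, overlaps Gad1 by 10286 bases in GENCODE M21, and the sources used here do not say whether counting used strand.

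The Dlx genes encode homeodomain factors that start the GABAergic programme in the ganglionic eminences, with Dlx1 and Dlx2 acting in progenitors and Dlx5 later in their descendants. Dlx1 measured 153, 123 and 138 CPM in FCRE3, FCRE4 and FCRE5, against 110.4, 91.6 and 138 CPM in FF1, FF2 and FF4. FF1 and FF2 were the lowest libraries and FF4 lay inside the CAP1-KO range. Its log2 fold change was 0.30 (95% interval -0.04 to 0.63, limma adjusted p = 0.265). Dlx1as, an antisense RNA, overlaps Dlx1 by 5869 bases in GENCODE M21. In RefSeq it lies at chr2:71530638-71537891 and overlaps only part of Dlx1. Its deposited level was 107 ± 6.89 CPM in CAP1-KO and 96.5 ± 7.32 CPM in Control (n = 3 each). That entry carries no Ensembl number, so which annotation was counted is not known, and the division of reads between the pair is uncertain. Dlx2 measured 43.8, 34.8 and 40.1 CPM in FCRE3, FCRE4 and FCRE5, against 39.5, 28.3 and 39.4 CPM in FF1, FF2 and FF4. Here the groups overlapped more fully, since FF1 and FF4 both exceeded FCRE4 (log2 fold change 0.15, 95% interval -0.17 to 0.48, limma adjusted p = 0.540). Dlx5 measured 25.1, 20.8 and 23.2 CPM in FCRE3, FCRE4 and FCRE5, against 15.4, 12.1 and 21.9 CPM in FF1, FF2 and FF4, again with FF4 among the CAP1-KO libraries. Its log2 fold change was 0.49 (95% interval 0.06 to 0.93, limma adjusted p = 0.170). Sp9, a zinc finger factor of ventral forebrain neurons, measured 34.1, 24.8 and 29.7 CPM in FCRE3, FCRE4 and FCRE5, against 21.9, 15.3 and 27.3 CPM in FF1, FF2 and FF4. FF4 exceeded FCRE4 and the other Control libraries did not (log2 fold change 0.46, 95% interval 0.00 to 0.92, limma adjusted p = 0.213). Sp9 overlaps the antisense gene Cir1 by 1602 bases in GENCODE M21, and Cir1 was low, at 5.88 ± 0.0977 CPM in CAP1-KO and 5.53 ± 0.345 CPM in Control (n = 3 each). In RefSeq, Cir1 (chr2:73283872-73312592) does not overlap Sp9.

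Dlx5 lies beside Dlx6 and the long noncoding RNA Dlx6os1, whose end is 6173 bases from Dlx5, both chosen for description after their values were seen. Dlx6 lies within the span of Dlx6os1, so the division of reads between them is uncertain. Dlx6os1 measured 111, 117 and 113 CPM in FCRE3, FCRE4 and FCRE5, against 66.8, 56.5 and 86.2 CPM in FF1, FF2 and FF4. Unlike at Dlx5, every CAP1-KO library exceeded FF4, and the log2 fold change was 0.72 (95% interval 0.41 to 1.03, limma adjusted p = 0.0591), just short of the threshold. The authors' deposited table lists Dlx6os1 at 0.71 (log2) with an FDR of 0.0980. Dlx6, the homeobox partner of Dlx5, measured 15.7, 13.3 and 13.8 CPM in FCRE3, FCRE4 and FCRE5, against 5.80, 4.41 and 16.5 CPM in FF1, FF2 and FF4 (limma adjusted p = 0.249). The highest library for Dlx6 was FF4, which had 3.23 times the mean of FF1 and FF2.

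**Figure D2:**
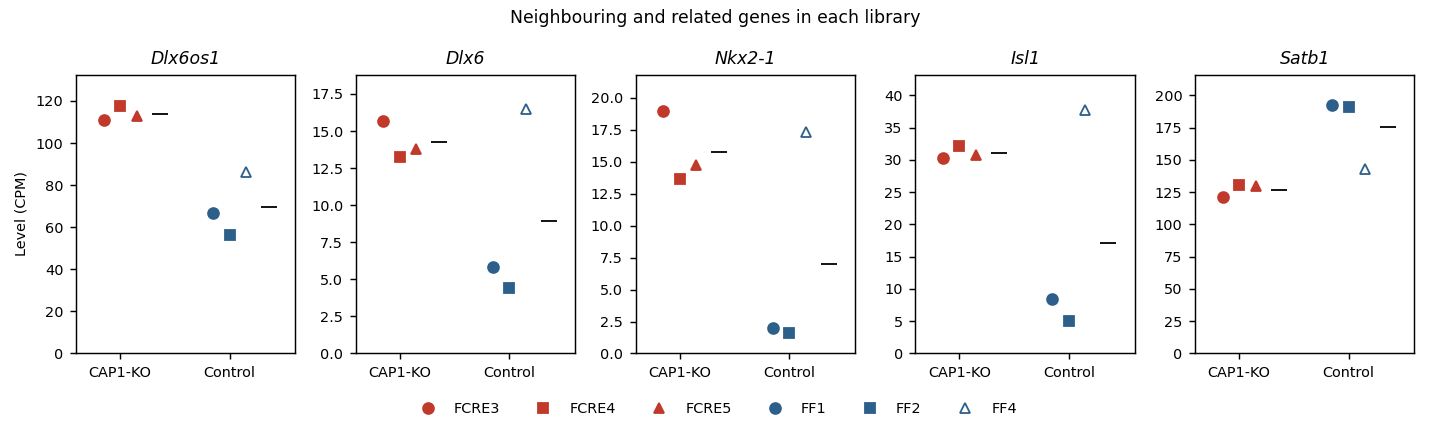
Level (CPM, linear axis from 0) of Dlx6os1, Dlx6, Nkx2-1, Isl1 and Satb1 in the CAP1-KO libraries (red, left) and Control libraries (blue, right), with group means as black ticks. Dlx6os1 is higher in every CAP1-KO library (111 to 117 CPM) than in any Control library (56.5 to 86.2 CPM), while FF4 (open triangle) lies with the CAP1-KO libraries for Dlx6, Nkx2-1 and Isl1.

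Lhx6 and Npas1 are transcription factors of migrating and maturing interneurons. Lhx6, which specifies somatostatin and parvalbumin interneurons, measured 92.8, 91.2 and 89.1 CPM in FCRE3, FCRE4 and FCRE5, against 94.1, 91.5 and 96.4 CPM in FF1, FF2 and FF4. The 6 libraries lay close together, with coefficients of variation of 2.01% in CAP1-KO and 2.62% in Control, and FF4 had 1.04 times the mean of FF1 and FF2. Its log2 fold change was -0.05, and the 95% interval of -0.15 to 0.06 corresponds to folds between 0.903 and 1.04 (limma adjusted p = 0.563). Npas1, a repressor present in subsets of GABAergic neurons, measured 11.7, 12.9 and 11.1 CPM in FCRE3, FCRE4 and FCRE5, against 25.6, 22.8 and 17.2 CPM in FF1, FF2 and FF4. All CAP1-KO libraries lay below all Control libraries, and FF4 was the lowest of the Control libraries, at 0.708 times the mean of FF1 and FF2. Npas1 fell to 11.9 ± 0.917 CPM in CAP1-KO, against 21.9 ± 4.32 CPM in Control, or 54.4% of the Control level (n = 3 each). The log2 fold change was -0.81 (SE 0.14, limma adjusted p = 0.0466), and the 95% interval corresponds to folds between 0.456 and 0.712. This adjusted p is close to the threshold, and leaving out FCRE3, FCRE4, FCRE5, FF1 or FF2 took it above 0.05, with adjusted p between 0.0586 and 0.242.

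The neuropeptide genes Sst and Npy, whose products are made together by a subset of cortical interneurons, had fold changes of opposite sign. Sst, which encodes somatostatin, measured 67.0, 64.8 and 72.9 CPM in FCRE3, FCRE4 and FCRE5, against 43.6, 40.1 and 72.6 CPM in FF1, FF2 and FF4. FF4 lay within the CAP1-KO range and FF1 and FF2 far below it (log2 fold change 0.43, 95% interval -0.03 to 0.89, limma adjusted p = 0.240). Npy, which encodes neuropeptide Y, measured 28.7, 34.6 and 33.2 CPM in FCRE3, FCRE4 and FCRE5, against 42.0, 43.8 and 44.2 CPM in FF1, FF2 and FF4. The Control libraries were tightly grouped, FF4 included, and all exceeded the CAP1-KO libraries. Npy averaged 32.2 ± 3.06 CPM in CAP1-KO and 43.3 ± 1.20 CPM in Control (n = 3 each), with a log2 fold change of -0.42 (95% interval -0.59 to -0.25) that narrowly missed the threshold (limma adjusted p = 0.0525). In the authors' deposited table Npy stands at -0.43 (log2) with an FDR of 0.0272 and Npas1 at -0.88 with 0.0291, while the other 8 genes have an FDR of 0.401 or more. That table has 0.813% of its genes at an FDR under 0.05.

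The Control group was not uniform for these genes, and the comparison depended on which of its libraries was used. FF4 exceeded both FF1 and FF2 for 8 of the 10 genes, as it did for 34.7% of tested genes, and for Gad1, Gad2, Dlx5 and Sst it had at least 1.5 times their mean, as for 5.05% of tested genes. FF2 was the lowest of all 6 libraries for 7 of the 10 genes and for 18.8% of tested genes. FF4 was set apart because its marker values lay near those of CAP1-KO. Leaving it out therefore favours separation of the groups, and adjusted p-values without FF4 cannot be taken at face value. Without FF4, that is against FF1 and FF2 alone, 6 genes were higher in CAP1-KO and 2 lower (limma adjusted p under 0.05), beside 9.31% higher and 18.9% lower of all genes tested. The log2 fold changes were then 0.84 for Gad1 (limma adjusted p = 0.000287), 0.95 for Gad2 (0.000251), 0.69 for Sst (0.000250), 0.71 for Dlx5 (0.00206), 0.45 for Dlx1 (0.0103) and 0.65 for Sp9 (0.0158). Npas1 was lower by -0.97 (limma adjusted p = 0.000249) and Npy by -0.41 (0.00612), whereas Dlx2 (0.23, adjusted p = 0.245) and Lhx6 (-0.03, 0.671) did not pass.

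Against FF4 alone, none of the 10 genes passed the test, where the lone Control library was assumed to vary like the CAP1-KO libraries. The comparisons share the CAP1-KO libraries and FF4. Of all genes, 0.315% were higher and 0.0859% lower by limma, and at unadjusted p under 0.05 Gad1, Npy and Npas1 were lower and 0 of the 10 higher, beside 5.02% lower and 3.31% higher of all genes. Npas1 stood at a log2 fold change of -0.50 (95% interval -0.78 to -0.21, limma adjusted p = 0.338) and Npy at -0.45 (-0.72 to -0.19, adjusted p = 0.349). Lhx6 was at -0.08 (-0.23 to 0.06). Of the genes with positive values against all 3 Control libraries, Gad1 stood at -0.22 (95% interval -0.42 to -0.02, limma adjusted p = 0.563), Gad2 at 0.07 (-0.19 to 0.33), Dlx1 at -0.01 (-0.27 to 0.26), Dlx2 at 0.00 (-0.29 to 0.29), Dlx5 at 0.06 (-0.21 to 0.34), Sp9 at 0.10 (-0.28 to 0.47) and Sst at -0.09 (-0.28 to 0.10). For Npy the values against FF4 alone, FF2 alone and all 3 Control libraries lay between -0.45 and -0.42. Against FF2 alone, the Control library with a matching Xist level, Gad2 stood at 1.04, Gad1 at 0.95, Sp9 at 0.89, Dlx5 at 0.87, Sst at 0.75, Dlx1 at 0.58 and Dlx2 at 0.46 on the log2 scale, with Lhx6 at -0.01, Npy at -0.44 and Npas1 at -0.89, given without a test. FF1 and FF4 shared a low Xist level and still differed, for example 95.5 against 184 CPM for Gad1. The part of embryo sex in these differences was not tested. With the Xist level as a covariate none of the 10 genes passed (limma adjusted p between 0.230 and 0.960). FF2 was the only Control library with a high Xist level, so this fit rests largely on FF2 and is no separate test of sex. In that fit the median log2 fold change was 0.64 over the 10 genes, against -0.01 over all genes tested. Gad1 stood at 0.92, Gad2 at 1.01, Sp9 at 0.88, Dlx5 at 0.85, Sst at 0.72, Dlx1 at 0.57 and Dlx2 at 0.47. These values were further from 0 than without the covariate and close to those against FF2 alone.

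**Figure D3:**
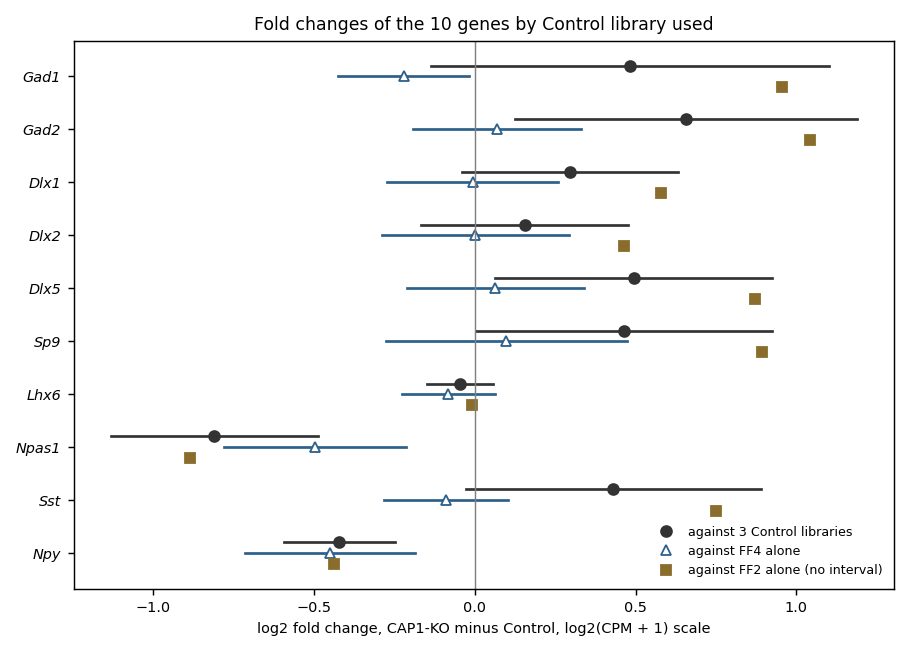
Log2 fold changes (CAP1-KO minus Control on the log2(CPM + 1) scale) of the 10 genes against all 3 Control libraries (black circles, 95% interval), against FF4 alone (blue open triangles, 95% interval) and against FF2 alone (brown squares, no interval). Npas1 and Npy are negative in all, between -0.89 and -0.42, while Gad1, Gad2, the Dlx genes, Sp9 and Sst are near 0 or below against FF4 and positive against FF2.

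Companion lists of GABA and interneuron genes had no called member against all 3 Control libraries, but several against FF1 and FF2 alone, where 9.31% of all genes were higher and 18.9% lower. Counts at unadjusted p under 0.05 are to be read against 7.74% higher and 15.3% lower of all tested genes. Of 8 genes of GABA synthesis, transport and breakdown, 0 were higher and 0 lower by limma (1 and 0 at unadjusted p under 0.05), with a median log2 fold change of 0.06. Without FF4, 3 were higher and 0 lower, and without FCRE3 1 was higher, where 65 of all 13867 genes were. Among the most abundant was Slc12a5, the chloride exporter KCC2, at 110.7 ± 21.2 CPM in CAP1-KO and 113 ± 35.5 CPM in Control (n = 3 each). Of 21 transcription factors of the ventral forebrain and interneurons 19 were tested and 0 passed in either direction (4 higher and 3 lower at unadjusted p), with a median of -0.06, whereas without FF4 7 were higher and 7 lower. Zeb2, which steers interneurons away from a striatal fate, measured 505 ± 45.8 CPM in CAP1-KO and 569 ± 92.5 CPM in Control, and Nr2f1, a nuclear receptor of caudal interneurons, 166 ± 8.92 CPM in CAP1-KO and 195 ± 26.3 CPM in Control (n = 3 each). Lhx8, a partner of Lhx6 in the medial ganglionic eminence, had 0 reads in every library and no matched exon length. Whether its reads could be counted is not known. If they could, the limit is 0.0804 to 0.0962 CPM.

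Other genes of that list, singled out after their values were seen, showed how far FF4 differed. Nkx2-1, the regulator of the medial ganglionic eminence that acts upstream of Lhx6, measured 19.0, 13.7 and 14.7 CPM in FCRE3, FCRE4 and FCRE5, against 1.96, 1.64 and 17.3 CPM in FF1, FF2 and FF4 (limma adjusted p = 0.189). Isl1, a factor of striatal and cholinergic neurons, measured 30.2, 32.2 and 30.8 CPM in FCRE3, FCRE4 and FCRE5, against 8.43, 5.06 and 37.7 CPM in FF1, FF2 and FF4 (limma adjusted p = 0.233). In both genes FF4 lay with or above the CAP1-KO libraries. Satb1, which promotes maturation of somatostatin interneurons but is also made by cortical projection neurons, measured 121, 130.4 and 129.6 CPM in FCRE3, FCRE4 and FCRE5, against 193, 191 and 143 CPM in FF1, FF2 and FF4 (limma adjusted p = 0.0971). Its groups did not overlap.

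Among 15 genes of interneuron migration, 0 passed in either direction by limma (2 higher and 5 lower at unadjusted p), and the median was 0.04. At unadjusted p under 0.05, 7.74% of all tested genes were higher and 15.3% lower. Without FF4, 3 were higher and 6 lower, beside 9.31% higher and 18.9% lower of all genes tested. The most abundant were Dcx, a microtubule protein of migrating neurons, at 1987 ± 97.2 CPM in CAP1-KO and 2002 ± 150.0 CPM in Control, and Robo1, a Slit receptor, at 300.2 ± 22.4 CPM in CAP1-KO and 337 ± 27.9 CPM in Control (n = 3 each). Of 22 interneuron subtype markers 18 were tested and 0 passed in either direction by limma (0 higher and 4 lower at unadjusted p), with a median of -0.11. Without FF4, 4 were higher and 5 lower, and without FCRE4 2 were lower. Of all genes, 9.31% were higher and 18.9% lower without FF4. Without FCRE4, 175 of 13862 genes were lower. Mef2c, a transcription factor of maturing neurons, measured 605 ± 33.2 CPM in CAP1-KO and 765 ± 106.6 CPM in Control, and Reln, made by Cajal-Retzius cells as well as interneurons, 414 ± 15.2 CPM in CAP1-KO and 481 ± 66.5 CPM in Control (n = 3 each). Pvalb, Vip, Crh and Lamp5, markers of later subtypes, were below the filter.

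Markers of striatal projection neurons, which share Dlx and Gad expression, and of septum and basal forebrain were measured beside the 10 genes. All 18 striatal markers were tested, 1 fell and 0 rose by limma (4 lower and 4 higher at unadjusted p), and the median was 0.26. Counts of this and the following lists are to be read against all genes tested. Of these, 0.403% were lower and 0.562% higher by limma, and 15.3% lower and 7.74% higher at unadjusted p. Without FF4, 11 were higher and 3 lower, where 9.31% of all genes were higher and 18.9% lower. Ppp1r1b, the dopamine signalling protein DARPP-32, was the gene that fell, to 29.1 ± 2.10 CPM in CAP1-KO, against 45.4 ± 2.19 CPM in Control (n = 3 each, limma adjusted p = 0.00689). It did not pass without FCRE5, without FF1, with no filter on low values or with the Xist covariate, where 0 striatal markers were called lower. The summed striatal level was 1351 to 1495 CPM in CAP1-KO and 1329 to 1502 CPM in Control, and FF4 was the highest. Septal and basal forebrain markers (9 of 10 tested, 0 called by limma, 3 higher and 0 lower at unadjusted p) had a median of 0.72, and without FF4 7 were higher and 0 lower. They summed to 139.8 to 179.8 CPM in CAP1-KO, and to 105.0, 77.4 and 189 CPM in FF1, FF2 and FF4. Zic1 measured 60.3 ± 7.05 CPM in CAP1-KO and 41.0 ± 25.3 CPM in Control, and Trpc4 37.7 ± 3.75 CPM in CAP1-KO and 42.0 ± 1.26 CPM in Control (n = 3 each). FF4 exceeded the mean of FF1 and FF2 by a median of 0.50 (log2) over the 10 genes, 0.43 over the GABA list, 0.95 over the striatal list, 1.37 over the septal list and 0.63 over the choroid list. The same median was 0.11 over the transcription factors, 0.00 over the subtype markers, -0.15 over the migration genes, -0.61 over the glutamatergic list and -0.03 over all genes tested. Against FF4 alone the median log2 fold changes were -0.04 for the 10 genes, -0.24 for the GABA list, -0.08 for the transcription factors, -0.03 for the migration genes, -0.16 for the subtype markers, -0.13 for the striatal list, -0.19 for the septal list, 0.10 for the glutamatergic list and 0.81 for the choroid list. Of 12 glutamatergic genes 0 passed by limma (0 higher and 3 lower at unadjusted p), with a median of -0.32, and without FF4 0 were higher and 9 lower. Among them was Neurod6, a transcription factor of cortical projection neurons (485 ± 47.8 CPM in CAP1-KO and 598.5 ± 128.8 CPM in Control, n = 3 each). Choroid plexus markers (4 of 7 tested, 4 higher and 0 lower at unadjusted p) had 1 called gene, Ttr, the thyroid hormone carrier transthyretin, higher at 80.5 ± 29.7 CPM in CAP1-KO against 0.152 ± 0.156 CPM in Control (n = 3 each, limma adjusted p = 0.000103), and they summed to 53.5 to 117 CPM in CAP1-KO and 1.52 to 5.44 CPM in Control. Without FF4, 4 were called higher, and 2 without FCRE5 or with scaling to total reads. Of all genes, 33 of 13872 were higher without FCRE5 and 104 of 13890 with that scaling. The part of these other tissues in the values of the 10 genes was not tested.

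**Figure D4:**
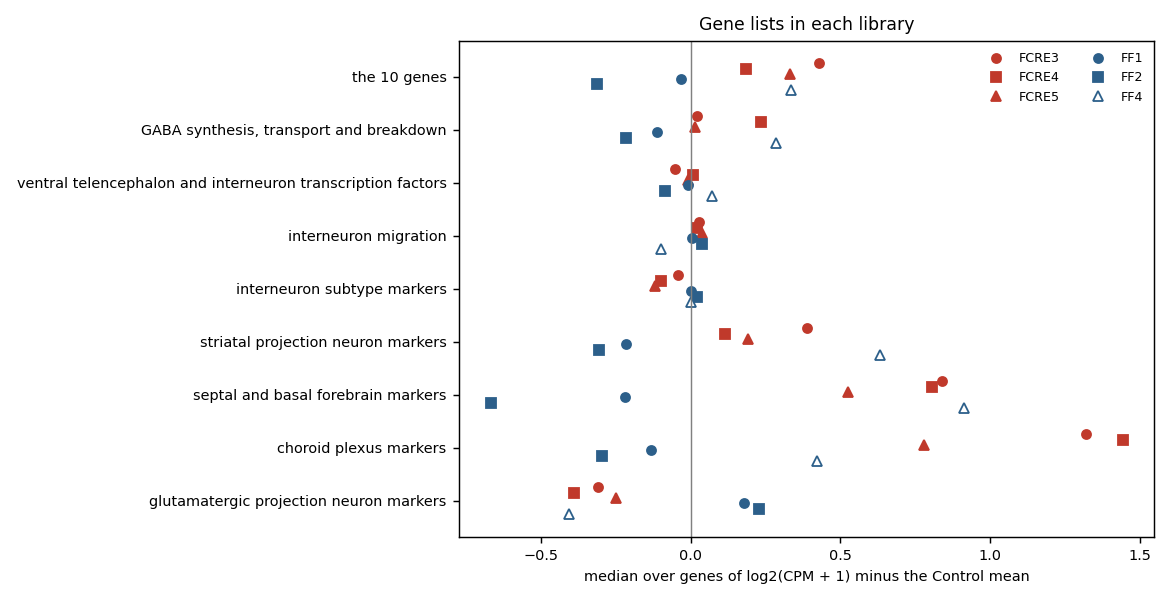
Median over the tested genes of each list of log2(CPM + 1) minus the Control mean, for the CAP1-KO libraries (red) and the Control libraries (blue). FF4 (open triangle) lies on the side of the CAP1-KO libraries for the 10 genes and for the striatal, septal and glutamatergic lists, and FF1 and FF2 lie on the other side.

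Ratios of CPM values within a library, which do not depend on its normalization, were formed after the values had been seen and carry no test. How often the ratios of other gene pairs separate the groups was not counted. The groups overlapped for Gad1 and Sst relative to Lhx6, Gad2 relative to Gad1, Dlx6os1 relative to Dlx5 and Dlx2 relative to Dlx1. Lhx6 hardly varied, so Npas1 relative to Lhx6 largely repeats the level of Npas1. Relative to Lhx6, Npas1 was 0.126, 0.142 and 0.125 in FCRE3, FCRE4 and FCRE5, against 0.272, 0.249 and 0.178 in FF1, FF2 and FF4. The groups did not overlap, with FF4 between the others. Npy relative to Sst was 0.429, 0.534 and 0.455 in FCRE3, FCRE4 and FCRE5, against 0.963, 1.09 and 0.609 in FF1, FF2 and FF4. Here too FF4 lay between the CAP1-KO libraries and the other Control libraries, although Npy relative to Lhx6 was 0.458 in FF4, within the Control values of 0.446 and 0.479 in FF1 and FF2 and above the 0.310 to 0.380 of CAP1-KO. Gad2 relative to Lhx6 was 1.57, 1.33 and 1.35 in FCRE3, FCRE4 and FCRE5, against 0.747, 0.675 and 1.27 in FF1, FF2 and FF4. Dlx5 relative to Dlx1 was 0.163 to 0.169 in CAP1-KO, against 0.139, 0.132 and 0.159 in FF1, FF2 and FF4, and Dlx2 relative to Dlx1 was 0.283 to 0.291 in CAP1-KO, against 0.358, 0.309 and 0.285 in FF1, FF2 and FF4. The SD of Dlx5 to Dlx1 was 0.00319 in CAP1-KO and 0.0137 in Control, and that of Dlx2 to Dlx1 0.00382 in CAP1-KO and 0.0371 in Control (n = 3 each).

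**Figure D5:**
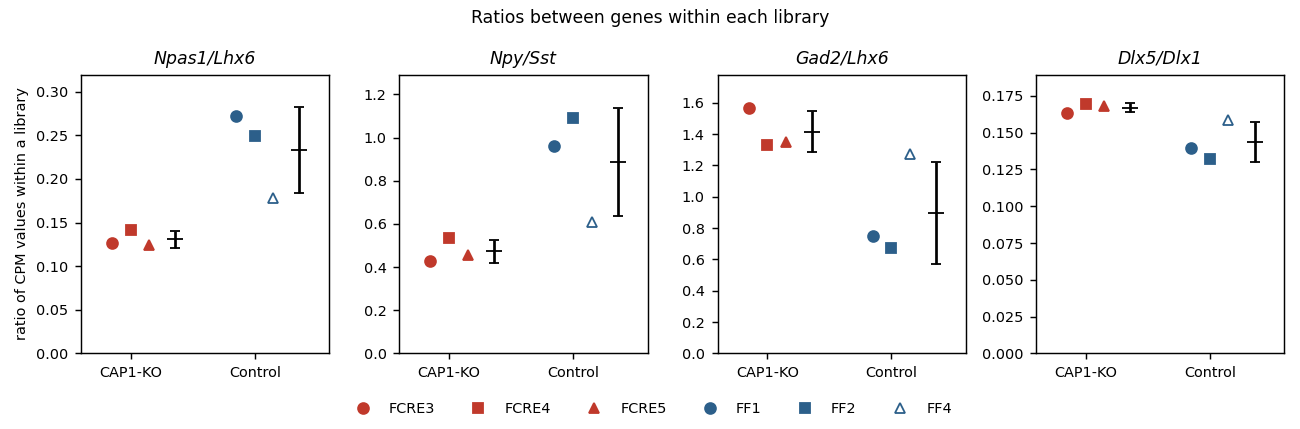
Ratio of CPM values within each library for Npas1 to Lhx6, Npy to Sst, Gad2 to Lhx6 and Dlx5 to Dlx1, with CAP1-KO libraries left (red) and Control libraries right (blue) and the mean and SD as a black bar. Npas1/Lhx6 and Npy/Sst are lower in all CAP1-KO libraries (0.125 to 0.142 and 0.429 to 0.534) than in all Control libraries (0.178 to 0.272 and 0.609 to 1.09). The ratios shown are ones whose groups did not overlap, and others formed did overlap.

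As a description over 6 libraries that share 2 genotypes, Pearson's r of log2(CPM + 1) with Gad1 was 0.95 for Gad2, 0.95 for Sst, 0.92 for Dlx5, 0.88 for Dlx1, 0.83 for Sp9 and 0.62 for Dlx2, against 0.16 for Lhx6, -0.48 for Npy and -0.76 for Npas1. Among 10235 other genes averaging 10 CPM or more, the genes most like each were Sp9 and Chrac1 for Dlx1 (r = 0.989 each), Zfhx4 and Dlx1 for Sp9 (r = 0.993 and 0.989), and Cacnb2 and Hpcal1 for Gad1 (r = 0.999 and 0.998). For Gad2 they were Maoa and Six3os1 (r = 0.999 and 0.996), for Dlx2 Usp54 and Ift43 (r = 0.987 and 0.985), and for Sst Kirrel and Nnat (r = 0.991 and 0.988). Maml3 was among the genes most like Dlx5 (r = 0.995) and Nsdhl among those most like Npy (r = 0.994). Npas1 was most like Epn1 and Strn4 (r = 0.999 each), and Lhx6, whose level hardly varied, most like Dhrs13 and Gng7 (r = 0.957 and 0.953). With 6 libraries and 10235 genes searched, a high r can be found for most profiles. Shared regulation with the genes named was not tested.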

How the data were processed

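Poly(A) RNA from cerebral cortex was sequenced in 3 CAP1-KO and 3 Control libraries, made with a stranded kit per the labels' protocols. Per the submitters' processing notes the authors named STAR, edgeR, GRCm38 and mm10, without versions. The sources used here name no read counter, strand setting or annotation. The authors deposited log2 normalized counts per library and, per the file headers, their own comparison of the groups as log2 fold changes with an F score, a p-value and an FDR. Column names gave the group but not the replicate number of the labels, which do not state litters, so p-values measure the spread between these libraries.

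The antilog minus each library's lowest value (0.0584 CPM) gave CPM, and 100% of values up to 1000 reads were within 0.01 of a whole read. One CPM stood for 31.2 to 37.3 reads, and the limit for a count of 0 (3 reads) covers counting error alone. As the table held log2 values and not counts, limma 3.58.1 (R 4.3.3, trend on mean level) was run on log2(CPM + 1) over the 13885 genes averaging 1 CPM or more, with Benjamini-Hochberg adjustment and a threshold of 0.05. Fold changes on this scale understate those of low genes. With 3 libraries a group the smallest exact permutation p is 0.1. On simulated data the fit recovered 71% of 1.5-fold and 91% of 2-fold changes, with 100 genes changed at each, and called 12 unchanged genes. The changed genes were drawn from above the lowest levels, so the rates do not cover the lowest genes tested. They average over genes of differing spread and are not those of genes with a wide Control spread, such as Gad1 and Gad2. The simulation drew each library independently, so it does not cover a shift shared by many genes of 1 library such as FF4. The 10 genes and the lists were chosen with earlier results of these data known. All 10 genes are named. Of each companion list every called gene is named, or the 2 of highest level where none was called, and some genes this rule names are not reported here. Genes outside it are said to be chosen after their values were seen. Coordinates and promoters are from RefSeq (GRCm38.p6), exon lengths from GENCODE M21. Figures used matplotlib 3.10.9.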

Additional observations from a re-analysis of the deposited data

How the results depend on the processing

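Of 13 alternatives for CAP1-KO against Control, Npas1 kept its limma call in 5 and Npy gained one in 2. The call of Npas1 was lost with limma-voom on recovered reads (log2 fold change -0.86, adjusted p = 0.0576, 0 of the 10 genes lower), with no filter on low values (-0.81, adjusted p = 0.266, 0 lower) and with the Xist level as a covariate (-0.86, adjusted p = 0.235, 0 lower), and the cause was not tested. Scaling to total reads turned Lhx6 to 0.0193 and moved the median of all genes to 0.06. Leaving out each library in turn gave log2 fold changes of 0.25 to 0.84 for Gad1, 0.46 to 0.95 for Gad2, 0.15 to 0.45 for Dlx1, -0.00021 to 0.24 for Dlx2, 0.31 to 0.71 for Dlx5, 0.25 to 0.65 for Sp9, 0.27 to 0.69 for Sst, -0.47 to -0.34 for Npy, -0.97 to -0.69 for Npas1 and -0.0653 to -0.0279 for Lhx6. Between 0 and 6 of the 10 genes were then higher and between 0 and 2 lower. Dlx2 turned negative without FF2, the calls of higher genes came without FF4, and Npy passed without FCRE4 (adjusted p = 0.0445) or FF4. Against FF4 alone, leaving out each CAP1-KO library gave -0.26 to -0.16 for Gad1, -0.0209 to 0.12 for Gad2, -0.0848 to 0.0736 for Dlx1, -0.0729 to 0.0883 for Dlx2, -0.0077 to 0.22 for Sp9, -0.50 to -0.37 for Npy and -0.55 to -0.45 for Npas1. Whether a gene was called then depended on the library left out, and the calls of these fits with a lone Control library are not given. Other size factors, a pseudocount of 0.1 and the deposited log2 values changed no call of the 10 genes. Over all genes, 78 rose and 56 fell, against 58 and 11 with no filter, 23 and 3 with the Xist covariate, and 33 to 1292 and 3 to 2622 when a library was left out. Searching the sense strand alone changed no motif count, and could not, because each motif reads the same on both strands. No paired analysis was possible because the library names cannot be tied to the replicate numbers of the labels. The comparison with FF2 alone was chosen after seeing the data. Depth limits what can be said of Gsx1, Pvalb, Vip, Crh and Lamp5, which were below the filter. Lhx8 was below it too, and whether its reads could be counted is not known.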
